A study of Schizosaccharomyces pombe with 31 samples.

Results

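The transcriptomes of fission yeast cells lacking Endosulfine (igo1∆) and of cells lacking the Greatwall kinases Ppk18 and Cek1 (ppk18∆ cek1∆) were compared after 4 h without nitrogen. The comparison used 6 RNAseq libraries, 3 of each strain, out of 31 in the series. They were chosen by the strain and the time in their labels. Earlier results of these data were known when the strains to compare were chosen. igo1∆ cells carried igo1::kanMX6, and ppk18∆ cek1∆ cells carried ppk18::KanMX6 and cek1::natMX6. Wild type cells were of strain 972. All strains were h-, and none of the genotypes has a deletion of ppk31, the third Greatwall gene of this yeast. The labels call the deleted genes knockdowns, although the genotypes are those of gene replacements. Cells in exponential growth in minimal medium (MM) were washed and moved to the same medium without nitrogen (MM-N). For reference, 3 wild type libraries at 4 h and the libraries of the strains in MM and at 1 h in MM-N were used. Each genotype was a single strain with 3 biological replicates of the same strain at each time. The p-values thus measure the spread between cultures of a strain and not between independently made deletions. That spread was estimated over all 27 libraries of the time course and not from the 6 compared libraries alone.

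The phosphatase PP2A, when it carries the B55 subunit (Pab1 in fission yeast), is blocked by Endosulfine once Greatwall kinases have put a phosphate on it. The pathway is held back by TORC1 in rich medium and is turned on when nitrogen runs out, when cells divide at a small size, arrest in G1 and become able to mate or to enter quiescence. The study reports that both deletion strains arrested in G2 instead. Comparisons with the wild type may therefore set different stages of the cell cycle against each other, and how much this adds to the differences was not tested. Both deletions interrupt the same pathway, one at the inhibitor of the phosphatase and the other at kinases above it, and the comparison asks where their effects on RNA levels differ.

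Reads on genes numbered from 15846889 to 18925486 per igo1∆ library and from 16723508 to 18296637 per ppk18∆ cek1∆ library. Values are the deposited normalized counts, which are read counts divided by a size factor for each library. Differences are on the scale of log2(normalized count + 1), as igo1∆ minus ppk18∆ cek1∆, and were tested with limma over all 27 libraries of the time course. A gene was called when its p-value, adjusted over the 6036 genes tested by the Benjamini-Hochberg method, was below 0.05. The pseudocount of 1 makes differences of weakly expressed genes smaller than they are. ppk18∆ cek1∆ replicate 3 stood apart from the other libraries. The chi-square per gene, which grows with the differences between libraries beyond counting noise, was 11.3 to 24.4 for the igo1∆ pairs and 18.2 between ppk18∆ cek1∆ replicates 1 and 2, but 43.7 and 82.2 for the pairs with replicate 3. In the wild type the M-cell marker mfm1, an M-factor gene, had 6727 to 10737 normalized counts and the P-factor gene map2 had 18.5 to 35.1, the direction of the h- label. Other P-cell genes stood well above map2 in the wild type, at 244 to 309 for map1 and 203 to 249 for map3. They were higher still for map4 and sxa1. In the deletion strains mfm1 was low, at 9.24 to 61.4 in igo1∆ and 21.5 to 33.0 in ppk18∆ cek1∆ cells, and map2 had 42.1 to 50.8 in igo1∆ and 38.6 to 50.1 in ppk18∆ cek1∆ cells. The M-cell transporter gene mam1 still had 1488 to 1799 in igo1∆ and 1620.1 to 1678 in ppk18∆ cek1∆ cells, against 5799 to 7216 in the wild type. The M-cell genes mfm2, mam3 and sxa2 were lower in each deletion library than in any wild type library as well. Of the P-cell genes, sxa1 was higher in both deletions, at 13981 to 14672 in igo1∆ and 13825 to 16299 in ppk18∆ cek1∆ cells against 8022 to 8431 in the wild type. By contrast, map1 and map3 were lower in both deletions, with map1 at 40.2 to 45.1 in igo1∆ and 62.3 to 84.5 in ppk18∆ cek1∆ cells. map3 had 122 to 136 in igo1∆ and 139 to 197 in ppk18∆ cek1∆ cells. map4 had 443 to 571 in igo1∆, 433 to 1054 in ppk18∆ cek1∆ cells and 664 to 774 in the wild type. In the deletion strains the markers as a whole thus did not tell the mating types apart.

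Reads of ppk18 and cek1 were nearly absent where the labels say the genes were deleted, while those of igo1 were not. The level of ppk18, the main Greatwall gene, was 7084, 7123 and 7275 normalized counts in igo1∆ cells, against 166, 179 and 142 in ppk18∆ cek1∆ cells (log2 difference of 5.46, adjusted p = 2.88e-22). For cek1 the values were 3891, 4055 and 4007 in igo1∆ and 59.5, 52.1 and 75.3 in ppk18∆ cek1∆ cells (log2 difference of 5.99, adjusted p = 1.42e-10). In the strain labelled igo1∆, igo1 was at 56.4% of the wild type mean, so that its reads alone do not establish the deletion. igo1 had 1507, 1518 and 1563 normalized counts in igo1∆ cells, against 4633, 4510.1 and 3984 in ppk18∆ cek1∆ cells and 2711 ± 164 in the wild type (SD, n = 3), with a log2 difference between the deletion strains of -1.51 (adjusted p = 1.66e-12). The igo1 gene overlaps SPAC10F6.17c on the other strand, and whether the remaining reads came from parts of the locus that were not replaced was not tested. In MM the levels of igo1 lay closer together, at 2032, 1948 and 2202 in igo1∆ and 2790.3, 3015 and 3075 in ppk18∆ cek1∆ cells (log2 difference of -0.52, adjusted p = 0.000191). The strain that kept a gene could exceed the wild type. Against the wild type, igo1 was 1.61 times as high in ppk18∆ cek1∆ cells (log2 difference of 0.69, adjusted p = 1.60e-08), and ppk18 was 1.49 times as high in igo1∆ cells (log2 difference of 0.58, adjusted p = 5.16e-06). The difference of cek1 between igo1∆ and the wild type did not pass the test (log2 difference of 0.28, adjusted p = 0.502).

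Few of the other genes of the pathway were called. The third Greatwall gene, ppk31, had 114, 118 and 149.7 normalized counts in igo1∆ cells, against 139, 129 and 124 in ppk18∆ cek1∆ cells, with overlapping values (adjusted p = 0.948). The PP2A scaffold gene paa1 was lower in each igo1∆ library than in any ppk18∆ cek1∆ library, at 3103, 3044 and 3019 in igo1∆, against 3309, 3184 and 3356 in ppk18∆ cek1∆ cells, and just missed the threshold (log2 difference of -0.10, adjusted p = 0.0586). It passed it without ppk18∆ cek1∆ replicate 2. For the catalytic subunit genes the log2 differences were -0.018 for ppa1 and 0.062 for ppa2. The B55 gene pab1 differed by 0.069, the B56 genes par1 and par2 by -0.13 and -0.13, and the PP2A activator gene ypa1 by 0.090, with adjusted p between 0.262 for pab1 and 0.875 for ppa1 among these 6 genes. The second activator gene, ypa2, was called higher at 637, 694 and 603 in igo1∆, against 600.5, 542 and 506 in ppk18∆ cek1∆ cells (log2 difference of 0.23, adjusted p = 0.0282). That call was lost when igo1∆ replicate 2, ppk18∆ cek1∆ replicate 2 or ppk18∆ cek1∆ replicate 3 was left out.

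Over the whole transcriptome, 362 of the 6036 genes tested (6.0%) were called between the strains, 266 of them higher (4.41%) and 96 lower (1.59%) in igo1∆ than in ppk18∆ cek1∆ cells. At an unadjusted p under 0.05 there were 1125. Most differences were small. The median was 0.29 on the log2 scale among the genes called higher and -0.33 among those called lower, and 18 genes differed by more than 2-fold. Of the called genes 314 coded for proteins and 44 were annotated as long non-coding RNAs. The libraries of the strains did not overlap for 348 called genes (96.1%), which compares with 20.8% of all genes tested. The count depended on which libraries entered the fit, and the cause of that was not tested. With the 6 libraries alone it was 77, of which 68 were among the 362, and with the 9 libraries at 4 h (a setting chosen after seeing the data) it was 204. It was 186 without ppk18∆ cek1∆ replicate 3, 188 without igo1∆ replicate 3 and 205 without igo1∆ replicate 2. In all 6 fits that left out 1 of the libraries, 155 genes were called, 127 higher and 28 lower, and none of the 362 changed sign. Of the 362 genes, 218 (60.2%) overlap a gene on the other strand, as do 56.9% of all genes tested. The libraries were stranded, but the strand setting of the counting is not given in the sources used here, so that single genes with such an overlap are uncertain.

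The difference between the strains had a common orientation. In ppk18∆ cek1∆ cells the mean level lay nearer to the wild type for 335 of the 362 called genes (92.5%), on the same side of the wild type as in igo1∆ cells, and the same held for 63.3% of all genes tested. igo1∆ cells lay nearer in 9 called genes (2.49%), against 30.2% of all genes. The wild type mean lay between the deletion strains in 18 (4.97%), against 6.46% of all genes. Among the 266 genes higher in igo1∆ cells, the median log2 difference from the wild type was 1.44 in igo1∆ and 1.11 in ppk18∆ cek1∆ cells. Among the 96 genes that were lower it was -1.09 in igo1∆ and -0.83 in ppk18∆ cek1∆ cells. Both comparisons with the wild type use the same 3 wild type libraries. They called 4536 genes (75.1%) in igo1∆ cells, 38.8% of all genes tested as higher and 36.4% as lower, and 4374 genes (72.5%) in ppk18∆ cek1∆ cells, 37.6% as higher and 34.8% as lower, so that the deletions differed from each other at far fewer genes than either did from the wild type.

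**Figure D1:**
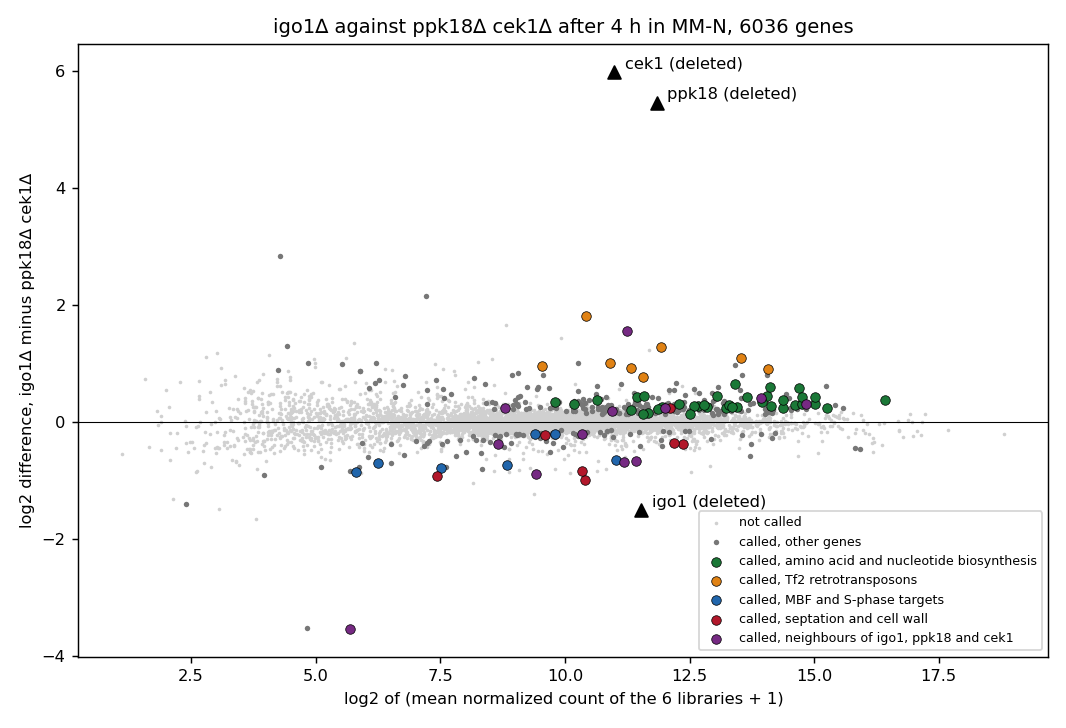
Each point is 1 of the 6036 genes tested, with its mean normalized count over the 6 libraries on the x axis (log2) and the log2 difference between igo1∆ and ppk18∆ cek1∆ cells after 4 h in MM-N on the y axis. Called genes of the biosynthesis list and the Tf2 elements lie above 0, those of the MBF list below 0, and of the deleted genes (triangles) cek1 at 5.99 and ppk18 at 5.46 are the highest points while igo1 at -1.51 lies within the range of other genes.

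Genes of amino acid and nucleotide biosynthesis gave more calls than any other list of protein coding genes, all of them higher in igo1∆ cells. Of the 67 genes of this list, 37 were called higher and none lower, against 4.41% and 1.59% of all genes, and 56 had a difference above 0. The median of the list was 0.21 on the log2 scale, compared with -0.0016 for all genes tested. Leaving out ppk18∆ cek1∆ replicate 3, there were 28 calls, all higher, and the median was 0.20. In both strains these genes stood above the wild type, with medians of 1.29 in igo1∆ and 1.10 in ppk18∆ cek1∆ cells. Calls were spread over the pathways. They took in 6 of 7 lysine genes, 7 of 8 genes for branched chain amino acids, 4 of 7 histidine genes, 4 of 8 arginine genes, 3 of 4 tryptophan genes, and 3 of 4 for homoserine and threonine. For serine they took in 2 of 3 genes, for proline 1 of 3, for purines 3 of 11 and for pyrimidines 2 of 5, and differences between pathways were not tested.

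The largest difference of the list was that of hom2, which encodes aspartate semialdehyde dehydrogenase. hom2 had 12271, 14101 and 13308 normalized counts in igo1∆ cells, against 9143, 9259 and 7061 in ppk18∆ cek1∆ cells (log2 difference of 0.65, standard error 0.090, adjusted p = 5.66e-05). The lowest igo1∆ library was above the highest ppk18∆ cek1∆ library, and both groups were well above the wild type mean of 1267. The gene for phosphoglycerate dehydrogenase, the entry to serine synthesis, behaved alike: ser3 had 19820.0, 22973 and 21365 normalized counts in igo1∆ cells, against 15541, 14225 and 12696 in ppk18∆ cek1∆ cells (log2 difference of 0.60, adjusted p = 8.06e-05). Homocitrate synthase, the first enzyme of lysine synthesis in fungi, is encoded by lys4. Its level was 29718, 33308 and 32282 in igo1∆, against 22735, 21176 and 19825 in ppk18∆ cek1∆ cells, and 2304 on average in the wild type (log2 difference of 0.58, standard error 0.063, adjusted p = 2.29e-06). For neither ser3 nor lys4 did the strains overlap. The purine gene ade7 had 3223, 3860.5 and 3649 in igo1∆, against 2824, 2621 and 2387 in ppk18∆ cek1∆ cells (log2 difference of 0.45, adjusted p = 7.23e-05), and the asparagine synthetase gene asn1 had 35939, 39054 and 38494 in igo1∆, against 28841, 29335 and 26434 in ppk18∆ cek1∆ cells (log2 difference of 0.42, adjusted p = 1.65e-05). These 5 calls held in all 6 fits that left out a library, as did 28 of the 37 calls of the list.

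Outside the list, large rises without overlap included those of gcn3, aca1, SPCC70.08c and vht1. The gene gcn3 encodes a regulatory subunit of the translation factor eIF2B. gcn3 had 13035, 15329 and 17141 normalized counts in igo1∆ cells, against 9129, 9709 and 7217 in ppk18∆ cek1∆ cells (log2 difference of 0.81, standard error 0.087, adjusted p = 2.29e-06), and the wild type mean was 1453. aca1, which encodes an acetyltransferase for a toxic proline analogue, had 11128, 15509 and 16518 in igo1∆, against 7843, 7865 and 6089 in ppk18∆ cek1∆ cells (log2 difference of 0.97, adjusted p = 1.65e-05). Neither gene had any overlap between the strains, which the rule for naming the largest rises required. Each was at least 5.98 times the wild type mean in ppk18∆ cek1∆ cells already. SPCC70.08c had 19988, 21804 and 22674 normalized counts in igo1∆ cells and 13666, 13512 and 9888 in ppk18∆ cek1∆ cells, compared with 210.5 in the wild type (log2 difference between the deletions of 0.81, adjusted p = 0.000207). The biotin transporter gene vht1 was at 43237, 50065 and 46962 in igo1∆ and 32507, 31515 and 27935 in ppk18∆ cek1∆ cells, with 1137 in the wild type (log2 difference of 0.61, adjusted p = 2.21e-05). In ppk18∆ cek1∆ cells replicate 3 was the lowest library for each of these 4 genes. Without it their log2 differences were 0.68, 0.85, 0.66 and 0.54 in the order given, and all were still called.

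Tf2 elements, the long terminal repeat retrotransposons of fission yeast, gave the highest median of any list. Of 12 copies tested, 8 were called higher, none lower, and 11 lay above 0, with a median of 0.98 (all genes, -0.0016). The largest step was in Tf2-10. Tf2-10 had 1833, 2429.5 and 2139 normalized counts in igo1∆ cells, against 685, 672 and 477 in ppk18∆ cek1∆ cells (log2 difference of 1.81, standard error 0.21, adjusted p = 4.88e-06). The wild type mean was 53.3. For Tf2-7 the counts were 12496, 19318 and 16630.0 in igo1∆ and 7725, 9189.8 and 5788 in ppk18∆ cek1∆ cells (log2 difference of 1.10, adjusted p = 0.000108). The lowest igo1∆ library exceeded the highest ppk18∆ cek1∆ library for both copies, which the rule for naming the largest rises required. Differences of the other named copies were 1.28 for Tf2-6, 1.01 for Tf2-13, 0.97 for Tf2-4, 0.92 for Tf2-2 and 0.77 for Tf2-11. Medians over the copies against the wild type were 5.45 in igo1∆ and 4.50 in ppk18∆ cek1∆ cells. The copies are nearly identical in sequence and share reads, so their counts are uncertain one by one, and 8 calls are not 8 separate observations. Without igo1∆ replicate 3, 5 copies were called, and without ppk18∆ cek1∆ replicate 3, 6.

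**Figure D2:**
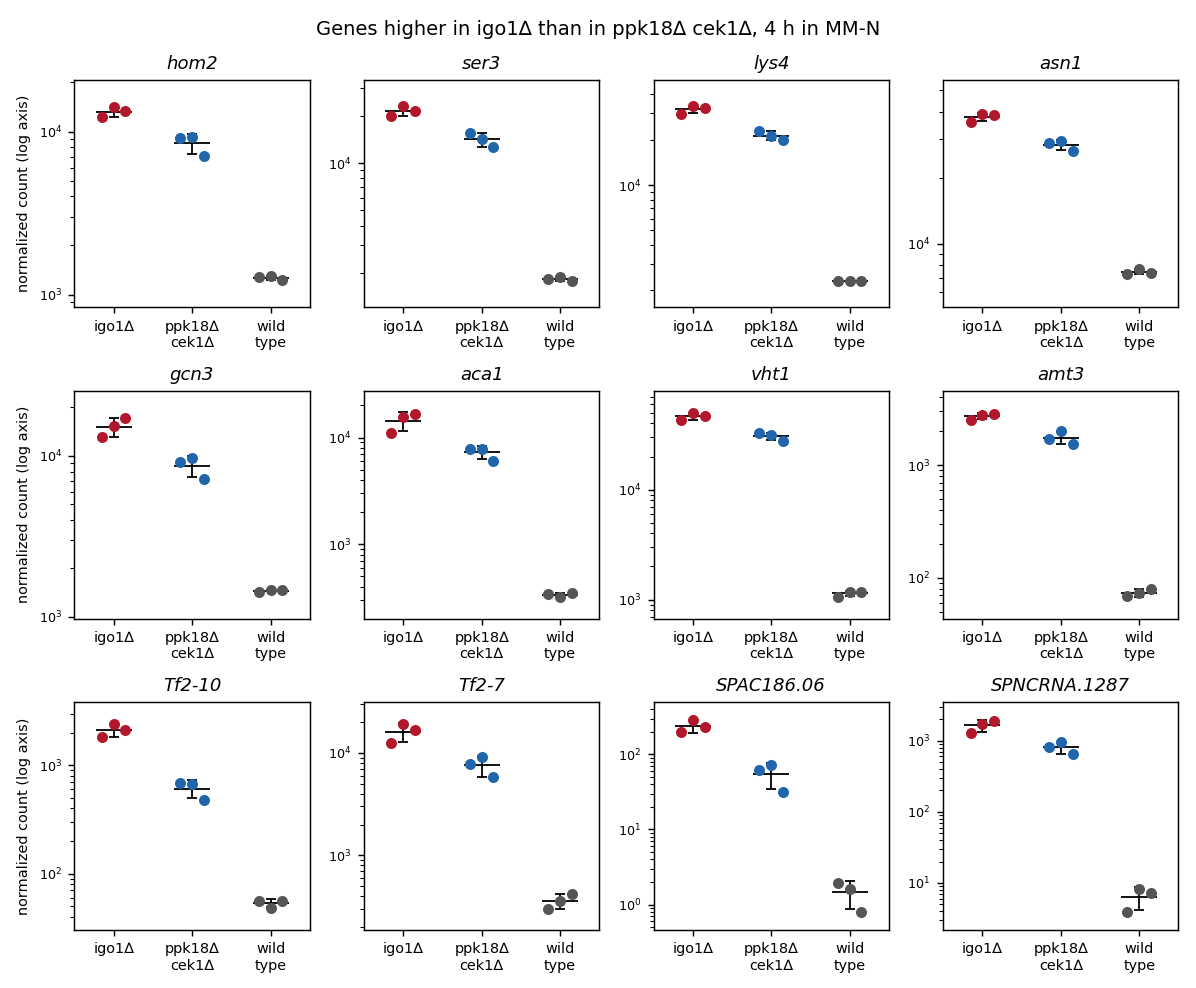
Normalized counts (log axis) of 12 genes higher in igo1∆ than in ppk18∆ cek1∆ cells after 4 h in MM-N, with 1 point per library, the mean (line) and the SD (bars) of 3 libraries for igo1∆, ppk18∆ cek1∆ and the wild type. In hom2, for example, the igo1∆ points lie between 12271 and 14101, those of ppk18∆ cek1∆ cells between 7061 and 9259, and the wild type mean is 1267.

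Genes of nitrogen uptake and assimilation went in both directions. Of 26 genes of nitrogen uptake and assimilation, 6 were called higher and 1 lower (4.41% and 1.59% of all genes), with a median of -0.047, and of 17 amino acid permease genes 5 were called higher and 1 lower, with a median of 0.0011. The ammonium transporter gene amt3 was high in igo1∆ cells: 2516, 2804 and 2857 normalized counts, against 1715, 1989 and 1549 in ppk18∆ cek1∆ cells and 73.5 in the wild type (log2 difference of 0.64, adjusted p = 0.0474). The GABA transaminase gene uga1 was low at 650.0, 631 and 751 in igo1∆, against 872, 841 and 1240.1 in ppk18∆ cek1∆ cells and 3067 in the wild type (log2 difference of -0.52, adjusted p = 0.00436). The permease gene isp5, which is induced when nitrogen is removed, had 13108, 8404 and 11106 in igo1∆, against 14123, 15456 and 18440.0 in ppk18∆ cek1∆ cells, and 40014 in the wild type (log2 difference of -0.57, adjusted p = 0.0304). Among the smaller rises were the ornithine carbamoyltransferase gene arg3 (0.26), the basic amino acid permease gene cat1 (0.32), agp3 (0.26) and stm1 (0.22). One of the higher calls of the first list is asn1, which is also counted in the biosynthesis list above. The calls of both lists were fragile. In all 6 fits that left out a library, only asn1 and uga1 of the first list and stm1 of the second were called. Without ppk18∆ cek1∆ replicate 3, 1 higher and 1 lower call of the first list and 1 higher and 0 lower calls of the second were left. Without igo1∆ replicate 2 or 3, 2 genes of the first and 1 of the second were called. The call of amt3 was lost in 5 of the 6 fits that left out a library. Those of isp5, cat1 and arg3 were lost without ppk18∆ cek1∆ replicate 3 and without igo1∆ replicate 2 or 3, and that of agp3 also without ppk18∆ cek1∆ replicate 1.

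Several genes for cell separation were lower in igo1∆ cells. After division the septum is dissolved by glucanases. The endoglucanase gene eng1, which digests the primary septum, had 989.6, 798 and 895 in igo1∆, against 1644, 1561 and 2183 in ppk18∆ cek1∆ cells (log2 difference of -0.99, standard error 0.12, adjusted p = 6.18e-06) and 23411 in the wild type. The groups did not overlap, which the rule for naming the largest falls required. RNA of whole cultures was measured, so that fewer cells in a stage of the cycle and less RNA in each cell cannot be told apart. Against the wild type mean, the eng1 level was 3.82% in igo1∆ and 7.67% in ppk18∆ cek1∆ cells, so that both deletions lost most of it and igo1∆ lost more. For adg2, another gene of the list, the values were 939.5, 839 and 896 in igo1∆ and 1531, 1063 and 2478 in ppk18∆ cek1∆ cells (log2 difference of -0.84, adjusted p = 0.0378), with the highest value in ppk18∆ cek1∆ replicate 3. The cell wall glucanosyltransferase gene gas1 had 4773, 4261 and 4717 in igo1∆, against 5503, 5062 and 7582 in ppk18∆ cek1∆ cells (log2 difference of -0.38, adjusted p = 0.0212). Of 35 genes of septation and cell wall, 6 were called lower, against 1.59% of all genes, and 1 higher (eng2, 0.24), with a median of -0.093. Without ppk18∆ cek1∆ replicate 3, 2 were called lower and 1 higher, and the calls of adg2 (adjusted p = 0.302) and gas1 (0.19) were lost. Without igo1∆ replicate 2 or igo1∆ replicate 3 the list had 3 calls as well, and adg2 and gas1 were not among them. The call of adg2 was lost without igo1∆ replicate 1 and ppk18∆ cek1∆ replicate 1 too, so in 5 of the 6 fits. The calls of eng1 and eng2 held in all 6 such fits.

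Some targets of MBF, the factor that turns on DNA replication genes at the G1-S transition, were lower in igo1∆ cells too. The licensing gene cdc18 had 129, 147 and 125 normalized counts in igo1∆ cells, against 256, 231 and 205 in ppk18∆ cek1∆ cells (log2 difference of -0.78, standard error 0.090, adjusted p = 5.76e-06). Its partner cdt1 had 30.0, 38.8 and 49.2 in igo1∆, against 68.4, 65.4 and 79.4 in ppk18∆ cek1∆ cells (log2 difference of -0.86, adjusted p = 1.87e-05). The wild type means were 2261 for cdc18 and 850.4 for cdt1, far above both deletions. Fewer cells in a stage of the cycle and less RNA in each cell cannot be told apart here either. The ribonucleotide reductase gene cdc22 was at 1661, 1524 and 1672 in igo1∆ and 2613, 2401 and 2636 in ppk18∆ cek1∆ cells (log2 difference of -0.65, adjusted p = 1.39e-07), which are 8.90% of the wild type mean in igo1∆ and 14.0% in ppk18∆ cek1∆ cells. For tos4 the levels were 362, 308 and 363 in igo1∆, against 583, 532 and 608 in ppk18∆ cek1∆ cells (log2 difference of -0.74, adjusted p = 2.66e-08), and for the dUTPase gene dut1 62.1, 58.2 and 50.3 in igo1∆, against 79.3, 106 and 93.8 in ppk18∆ cek1∆ cells (log2 difference of -0.70, adjusted p = 1.78e-05). None of these 5 genes had overlapping groups, which the rule for naming the largest falls required. All 5 calls held in the 6 fits that left out a library.

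Of the 33 genes of the MBF and S-phase list, 7 were called lower and none higher, against 1.59% and 4.41% of all genes. The difference did not extend to the whole list. Its median was -0.032 and 12 members lay above 0. The polymerase gene pol1 (-0.20) and the checkpoint gene mrc1 (-0.21) completed the 7, and their calls did not hold in all fits that left out a library. Among 23 genes of G1 arrest and mitotic control 2 were called, both lower. The Cdc2-inhibitory kinase gene mik1 had 42.1, 58.2 and 54.7 in igo1∆ and 88.2, 67.4 and 80.4 in ppk18∆ cek1∆ cells (log2 difference of -0.60, adjusted p = 0.000422). The S-phase cyclin gene cig2 had 190.3, 166 and 174 in igo1∆, against 249, 200.2 and 369 in ppk18∆ cek1∆ cells (log2 difference of -0.58, adjusted p = 0.0485), a call that was lost in 5 of the 6 fits without a library, among them the one without ppk18∆ cek1∆ replicate 3. In the histone list the called gene was ams2, which encodes a GATA factor for histone transcription (418, 406 and 440.2 in igo1∆, against 537, 524 and 562 in ppk18∆ cek1∆ cells, log2 difference of -0.36, adjusted p = 2.21e-05). No gene for a histone protein was called.

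**Figure D3:**
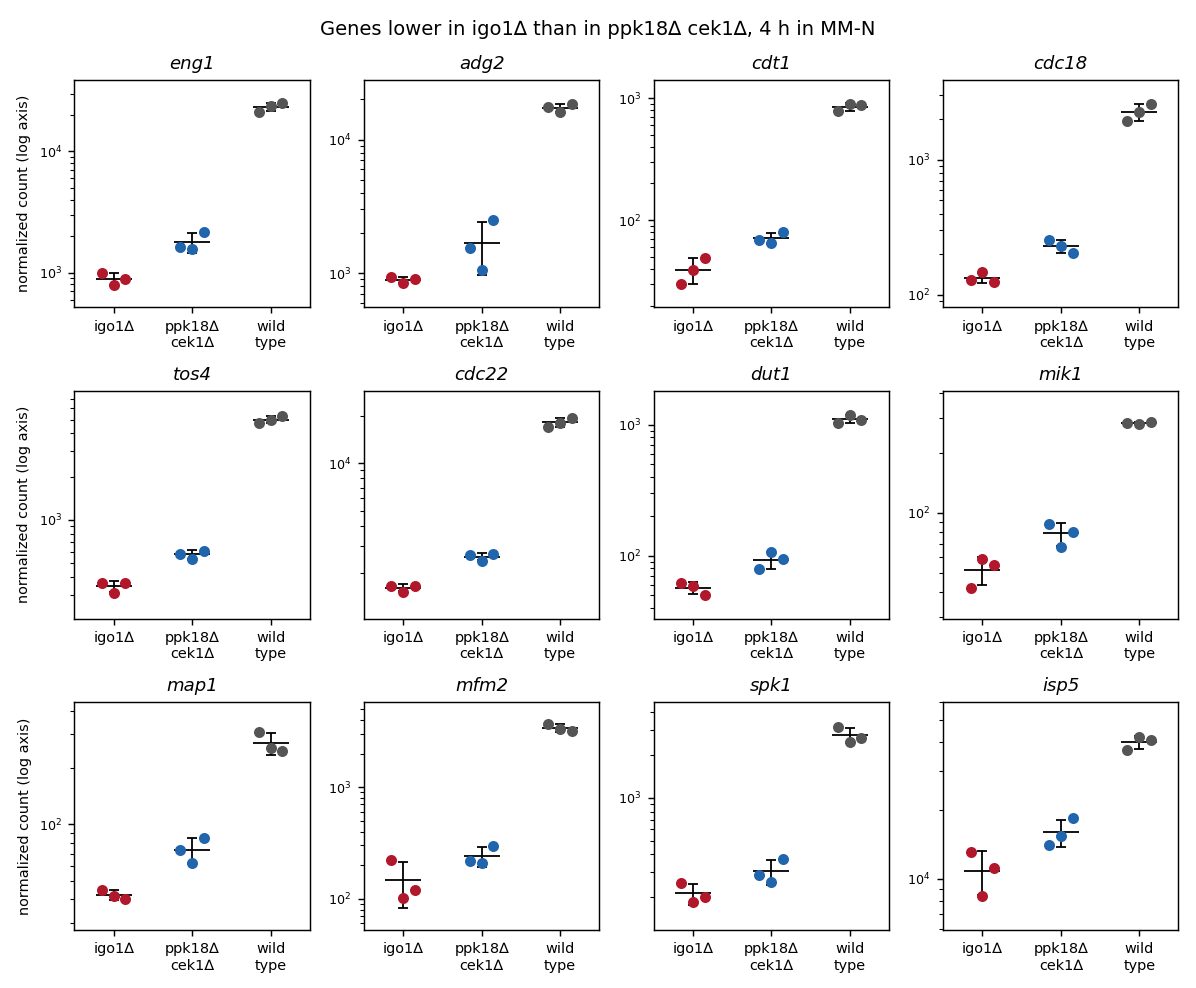
Normalized counts (log axis) of 12 genes lower in igo1∆ than in ppk18∆ cek1∆ cells after 4 h in MM-N, with 1 point per library, the mean (line) and the SD (bars) of 3 libraries for igo1∆, ppk18∆ cek1∆ and the wild type. Both deletions lie below the wild type, as for eng1 at a mean of 894 in igo1∆ and 1796 in ppk18∆ cek1∆ cells against a wild type mean of 23411, and igo1∆ is the lower of them.

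A few mating genes were also lower, with weaker support. The MADS box gene map1, needed for the transcription of mating type genes, had 45.1, 41.6 and 40.2 normalized counts in igo1∆, against 73.3, 62.3 and 84.5 in ppk18∆ cek1∆ cells and 269 in the wild type (log2 difference of -0.77, adjusted p = 0.00165). The G protein subunit gene gpa1 had 800.3, 696 and 783 in igo1∆, against 945, 884 and 1084 in ppk18∆ cek1∆ cells (log2 difference of -0.35, adjusted p = 0.0019). Both calls held when any library was left out. For spk1, the MAP kinase of the pheromone pathway, the values were 252, 184 and 201 in igo1∆ and 288, 254 and 372 in ppk18∆ cek1∆ cells (log2 difference of -0.51, adjusted p = 0.0191). The M-factor gene mfm2 had 221, 101 and 121 in igo1∆ and 216, 207 and 297 in ppk18∆ cek1∆ cells, with igo1∆ replicate 1 above 2 of the ppk18∆ cek1∆ libraries (log2 difference of -0.76, adjusted p = 0.0429). The calls of spk1, mfm2 and cwp1 (-0.33) were lost without ppk18∆ cek1∆ replicate 3, at adjusted p of 0.19, 0.25 and 0.0811. Those of spk1 and mfm2 were also lost without igo1∆ replicate 2 or igo1∆ replicate 3, and that of mfm2 without ppk18∆ cek1∆ replicate 1. Of 14 M-cell genes 2 were called and of 17 pheromone signalling genes 2, all of them lower (1.59% of all genes), with medians of -0.13 and -0.13. Without ppk18∆ cek1∆ replicate 3 the medians were -0.070 and -0.023, and 0 and 1 genes were called. map1 was the called gene of the 5 P-cell genes, whose median was -0.33 with that library and -0.015 without it. The level of the meiotic inducer mei2 was highest in that library: 491, 239 and 353 in igo1∆ and 679, 454 and 1765 in ppk18∆ cek1∆ cells, with no call (adjusted p = 0.0677). None of the 26 meiotic entry regulators was called by limma, against 6.0% of all genes tested. Without ppk18∆ cek1∆ replicate 2 there were 3, and without igo1∆ replicate 1 there was 1, mei2 in both cases among them.

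Of 30 genes of glycolysis and gluconeogenesis 4 were called lower and 1 higher, against 1.59% and 4.41% of all genes, with a median of -0.16. The enolase gene eno101 had 54310.0, 45982 and 54283 normalized counts in igo1∆, against 67368, 58119 and 91466 in ppk18∆ cek1∆ cells (log2 difference of -0.47, adjusted p = 0.0401), and the pyruvate decarboxylase gene pdc101 had 55349, 44927 and 45230.0 in igo1∆, against 59771, 58507 and 81616 in ppk18∆ cek1∆ cells (log2 difference of -0.45, adjusted p = 0.0118). In both, ppk18∆ cek1∆ replicate 3 was the highest library. The hexokinase gene hxk2 (-0.30) was called too. Without that library no gene of the list was called lower and the median was -0.082, while without ppk18∆ cek1∆ replicate 2 the list had 8 calls. The calls of eno101, pdc101 and hxk2 were also lost without igo1∆ replicate 2 or igo1∆ replicate 3, and that of eno101 without ppk18∆ cek1∆ replicate 1. The alcohol dehydrogenase gene adh4 went the other way, at 8151, 7569 and 8106 in igo1∆ and 6327, 6098 and 5959 in ppk18∆ cek1∆ cells (log2 difference of 0.37, adjusted p = 8.26e-05), and was called in each of those fits.

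Autophagy genes gave no call between the strains. None of the 28 genes of the list drawn by the study for these samples was called at 4 h, against 6.0% of all genes tested. At that share a list of this size would hold few calls, so that the count says little about its members. The differences ran from -0.25 to 0.19 with a median of -0.020. The study does not say how it chose that list and shows it with these same libraries, so that it may be no independent sample of autophagy genes. The largest difference was in nbr1, which encodes a selective autophagy receptor (3310.4, 2782 and 3077 in igo1∆ and 3676, 2816 and 4594 in ppk18∆ cek1∆ cells, adjusted p = 0.356). Against the wild type the list had a median of -0.42 in igo1∆ and -0.35 in ppk18∆ cek1∆ cells. Leaving out ppk18∆ cek1∆ replicate 2, 2 of its genes were called, nbr1 among them. Of 26 genes of the TORC1, TORC2 and S6 kinase pathways none was called, a list as small as that of autophagy. Its largest difference was in gtr1 (-0.13, adjusted p = 0.166), a GTPase gene upstream of TORC1. None of 141 genes for cytosolic ribosomal proteins was called either, against 6.0% of all genes tested. They ran from -0.27 to 0.27 with a median of 0.011, the largest difference being that of rpp203 (-0.27, adjusted p = 0.128), which was called without ppk18∆ cek1∆ replicate 2.

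Other lists held few calls. Of all genes tested 6.0% were called, 4.41% as higher and 1.59% as lower, and in the lists that follow 0% to 8.82% of the members. These counts were not tested against that share and say little about the members. Of 70 ribosome biogenesis genes 2 were called, both higher (rrp14, 0.35, and rrp12, 0.24), with a median of 0.046. Of 34 heat shock and chaperone genes 3 were called higher, all of them for mitochondrial chaperones: the cofactor mge1 (0.39), the Hsp60 gene mcp60 (0.24) and the Hsp70 gene ssc1 (0.16). The TCA cycle and respiration list of 47 had 2, the citrate synthase gene cit1 (0.20) and the malate dehydrogenase gene mdh1 (0.16). A single call each fell in the lists of stress genes (uvi15, 0.21, of 43), lipid metabolism (cho2, 0.23, of 35) and vacuolar breakdown (ppp16, 0.15, of 42), all higher. In the iron and zinc list of 29 the called genes were vht1 and adh4, and in the thiamine list of 12 it was pdc101. No member was called among 21 sulfate assimilation genes (largest difference in str3, -0.38), 12 phosphate genes (tgp1, -0.30), 8 hexose transporter genes (ght6, -0.47), 32 small nucleolar RNAs (snoR02, 0.73) and the 2 tRNA genes with enough reads to test (spl1, 1.19). Of the mitochondrial genome 23 features were tested and 1 was called (SPMITTRNAGLN.01, 0.40). Of the calls named here, those of mge1, mcp60, cit1, cho2 and rrp12 held in all fits that left out a library. Those of rrp14, ssc1, mdh1, uvi15, ppp16 and SPMITTRNAGLN.01 were lost without ppk18∆ cek1∆ replicate 3 and in 2 or more of the other 5. Without ppk18∆ cek1∆ replicate 2, 5 genes were called in each of the TCA cycle and ribosome biogenesis lists and 1 phosphate gene, and without igo1∆ replicate 1, 2 sulfate genes.

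**Figure D4:**
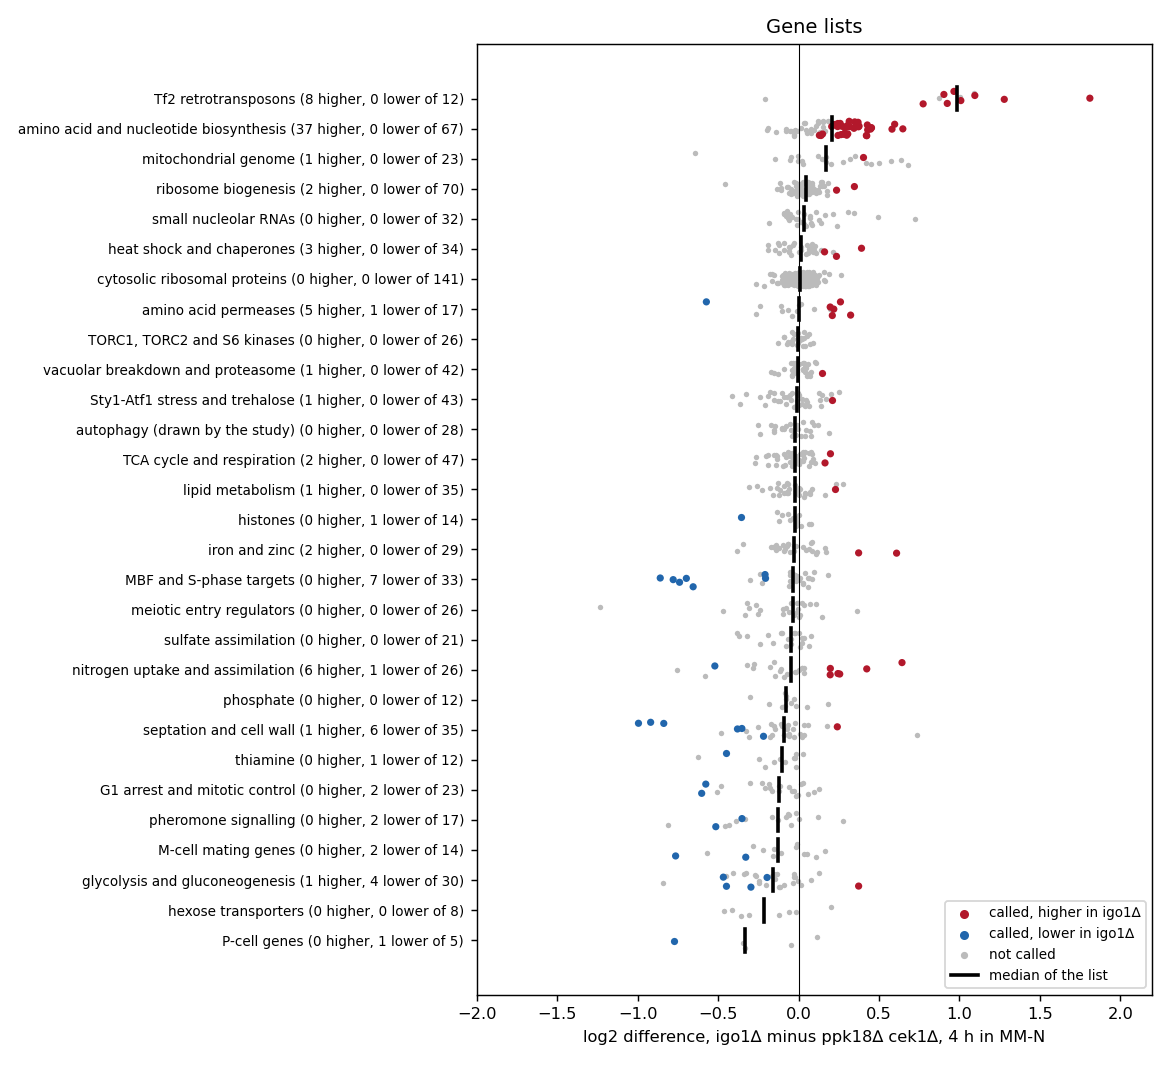
Each row is a gene list and each point a tested member, placed by its log2 difference between igo1∆ and ppk18∆ cek1∆ cells after 4 h in MM-N, with called members in colour and the median as a line. Tf2 elements (median 0.98) and biosynthesis genes (median 0.21) are shifted above 0, while the called members of the MBF list and all but 1 of the septation list lie to the left of 0, in lists with medians of -0.032 and -0.093.

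Of 948 long non-coding RNAs tested by their identifiers, 44 were called (4.64%, against 6.0% of all genes), 33 of them higher and 11 lower, with a median of 0.036. Without ppk18∆ cek1∆ replicate 3 there were 10 and 7, and the calls numbered 23 without igo1∆ replicate 2 and 24 without igo1∆ replicate 3. SPNCRNA.1287 had 1269, 1725 and 1918 normalized counts in igo1∆, against 822, 954 and 642 in ppk18∆ cek1∆ cells and 6.43 in the wild type (log2 difference of 1.02, adjusted p = 0.00186). SPNCRNA.1468 had 83.1, 119 and 91.6 in igo1∆, against 52.5, 41.9 and 49.5 in ppk18∆ cek1∆ cells (log2 difference of 1.00, adjusted p = 0.00314). Both were higher in every igo1∆ library, which the rule for naming them required. On the lower side SPNCRNA.1278 had 42.1, 30.5 and 35.8 in igo1∆, against 59.5, 62.3 and 72.2 in ppk18∆ cek1∆ cells, and 715 in the wild type (log2 difference of -0.83, adjusted p = 8.06e-05). SPNCRNA.234 and SPNCRNA.569 also had large differences (2.85 and -1.41) at very low counts, 23.0, 32.3 and 41.3 in igo1∆ against 2.97, 10.2 and 1.03 in ppk18∆ cek1∆ cells for SPNCRNA.234, and 1.00, 0.924 and 4.47 in igo1∆, against 4.95, 6.13 and 8.25 in ppk18∆ cek1∆ cells for SPNCRNA.569. The call of SPNCRNA.569 was lost in 4 of the 6 fits that left out a library.

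Of 123 tested genes among the outermost 40 coding genes at each end of chromosomes I and II, 11 were called higher and 6 lower, against 4.41% and 1.59% of all genes, with a median of 0.0032. The largest rise of any protein coding gene that was not deleted was in SPAC186.06: 197, 285 and 235 normalized counts in igo1∆, against 61.4, 72.5 and 32.0 in ppk18∆ cek1∆ cells and 1.46 in the wild type (log2 difference of 2.16, standard error 0.42, adjusted p = 0.00204). tgd1 had 898, 1051 and 934 in igo1∆, against 638, 533 and 482 in ppk18∆ cek1∆ cells (log2 difference of 0.81, adjusted p = 0.00383). SPAC11D3.19 was lower, 237, 204 and 242 in igo1∆, against 387, 286 and 569 in ppk18∆ cek1∆ cells (log2 difference of -0.81, adjusted p = 0.0189), a call that was lost without igo1∆ replicate 2 or ppk18∆ cek1∆ replicate 3. Leaving out ppk18∆ cek1∆ replicate 3, the list had 6 higher and 2 lower calls, and it had 8 calls in all without igo1∆ replicate 2 and 7 without igo1∆ replicate 3. The telomere-linked helicase gene tlh2 had 1.00, 5.54 and 5.59 in igo1∆ and 35.7, 54.1 and 62.9 in ppk18∆ cek1∆ cells (log2 difference of -3.52, adjusted p = 0.000239). It shares sequence with tlh1 near the other chromosome ends, so that its reads cannot be assigned with certainty.

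Some differences were present before starvation, and they clustered at the deleted genes. In MM 15 genes (0.249%) and at 1 h 16 genes (0.265%) were called between the strains, and 222 and 529 had an unadjusted p under 0.05. In MM 0.0828% of the genes tested were called higher and 0.166% lower, and at 1 h 0.116% and 0.149%. In all, 10 genes were called at 4 h, at 1 h and in MM, each with the same sign throughout. They were igo1, ppk18 and cek1 themselves, nar1 and SPCC1450.12 on either side of cek1, SPNCRNA.952 and SPNCRNA.953 on either side of ppk18, SPNCRNA.728 at 3 places from igo1, and the subtelomeric genes tlh2 and SPAC212.12. The gene nar1, whose product acts in iron-sulfur cluster assembly, had 485, 479 and 474 in igo1∆, against 811, 932 and 921 in ppk18∆ cek1∆ cells and 461 in the wild type at 4 h, and no difference from the wild type passed the test in igo1∆ cells (adjusted p = 0.414). Its log2 difference was -0.999 before nitrogen was removed, -1.07 at 1 h and -0.88 at 4 h. For SPCC1450.12 the values at these times were -0.74, -0.58 and -0.66. SPNCRNA.952 had 6.01, 5.54 and 10.1 in igo1∆, against 78.3, 123 and 80.4 in ppk18∆ cek1∆ cells at 4 h (log2 difference of -3.54), and SPNCRNA.953 had 1562, 1884 and 1869 in igo1∆, against 2823, 3062 and 2673 in ppk18∆ cek1∆ cells (log2 difference of -0.69). Their wild type means were 11.8 and 162. SPNCRNA.728 had 3998, 3401 and 3439.9 in igo1∆, against 1300.0, 1299 and 1099.9 in ppk18∆ cek1∆ cells (log2 difference of 1.55), with 559.7 in the wild type. SPAC212.12 had 80.1, 61.0 and 86.0 in igo1∆, against 44.6, 33.7 and 44.3 in ppk18∆ cek1∆ cells (log2 difference of 0.87), and its call at 4 h was lost without igo1∆ replicate 3 or ppk18∆ cek1∆ replicate 2. Among the 10 genes to either side of each of the deleted genes, 58 were tested and 6 were called higher and 6 lower at 4 h, against 4.41% and 1.59% of all genes. Whether the inserted cassettes, the missing genes or the ancestry of the strains set these levels was not tested.

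Of the 362 genes 349 were called neither at 1 h nor in MM, but for most of them a change with time was not shown. The interaction of strain and time, which tests the change itself, was called for 80 of the 362 between 4 h and MM and for 11 between 4 h and 1 h. The libraries at 1 h and in MM are separate from those at 4 h. The study harvested cells at successive times, however, and the labels reuse the replicate numbers, so that the times may share cultures. A deviation of a culture could then carry over between times, and the tests treat all libraries as independent. At 1 h 312 of the 362 (86.2%) had the sign they had at 4 h, against 56.3% of all genes tested, and in MM 227 (62.7%), against 55.2%. For the 266 genes higher at 4 h the median log2 difference was 0.012 in MM, 0.090 at 1 h and 0.29 at 4 h. For the 96 that were lower it was -0.019 in MM, -0.071 at 1 h and -0.33 at 4 h. These genes were selected on their values at 4 h. The values in MM and at 1 h are not part of the difference at 4 h. They did enter the selection, through the filter on the mean and the spread estimated over all 27 libraries. Cultures shared between the times could carry it over as well, so that the agreement in sign is not an independent check. Over all genes the interaction called 83 genes (1.38%) between 4 h and MM, 71 with a positive (1.18%) and 12 with a negative interaction (0.199%). Between 4 h and 1 h it called 11 genes (0.182%), 4 of them positive (0.0663%) and 7 negative (0.116%). With the libraries of the groups compared alone they were 15 and 3.

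Of the 7 genes with a negative interaction between 4 h and 1 h, 5 were MBF targets, with interactions on the log2 scale of -0.81 for cdt1, -0.70 for tos4, -0.70 for cdc18, -0.62 for dut1 and -0.56 for cdc22. For eng1 it was -0.93, and the last negative one was that of the deleted igo1. At 1 h these 6 genes differed by -0.093 to -0.041 between the strains, and at 4 h by -0.99 to -0.65. Biosynthesis genes appeared on the positive side between 4 h and MM, where 16 of the 67 were called. The interaction was 0.63 for hom2, 0.61 for ser3, 0.55 for lys4 and 0.40 for asn1. The 4 called positive interactions between 4 h and 1 h were asn1 (0.36), eca39 (0.32), pvg2 (0.48) and SPNCRNA.953 (0.56). These interactions were sensitive to single libraries. Between 4 h and MM they numbered 38 without igo1∆ 4 h replicate 2, 39 without igo1∆ 4 h replicate 3, 38 without ppk18∆ cek1∆ 4 h replicate 3 and 154 without igo1∆ 4 h replicate 1, and 51 and 49 without igo1∆ MM replicate 2 and ppk18∆ cek1∆ MM replicate 3. Between 4 h and 1 h they were 37 without igo1∆ 4 h replicate 1, 39 without ppk18∆ cek1∆ 4 h replicate 2 and 20 without ppk18∆ cek1∆ 1 h replicate 3. They were 4 to 6 without igo1∆ 4 h replicate 2 or 3, igo1∆ 1 h replicate 3, ppk18∆ cek1∆ 4 h replicate 3 or ppk18∆ cek1∆ 1 h replicate 1 or 2.

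**Figure D5:**
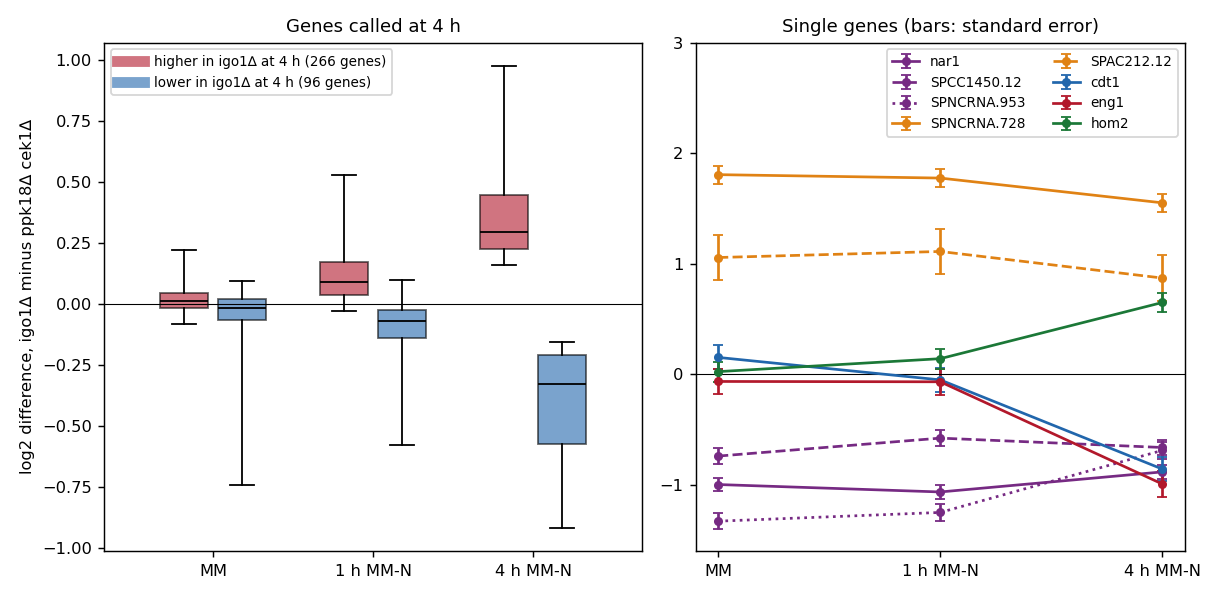
Left, log2 differences between igo1∆ and ppk18∆ cek1∆ cells for MM, 1 h and 4 h without nitrogen, for the 266 and 96 genes called at 4 h (box, quartiles with the median, and whiskers from the 5th to the 95th percentile). Right, the differences of 8 genes with their standard errors, where nar1 stays between -1.07 and -0.88 at all times while cdt1 moves to -0.86 at 4 h.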

How the data were processed

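Total RNA was depleted of ribosomal RNA and sequenced as stranded libraries. The authors trimmed reads with Trimmomatic 0.38 where needed, aligned them with HISAT2 2.1.0 and counted them per gene with featureCounts (Subread 1.6.3). The deposited signal values are those read counts after division by the size factor of DESeq2. Whole reads were recovered from 100% of the values (tolerance of 0.01 reads), and the count tests on them were alternatives. The strand setting of the counting is not given in the sources used here, and the reference annotation used for names is of another build than the labels name, so that no coordinates are given. It held 6851 of the 7001 identifiers.

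The 6036 genes whose normalized counts averaged 10 or more over 27 libraries were tested on log2(normalized count + 1) with limma 3.58.1 in R 4.3.3 (lmFit, contrasts and eBayes with a mean-variance trend), with a mean for each of 9 groups. Adjusted p-values are by the Benjamini-Hochberg method over all genes tested, and scripts were tested on simulated data. Alternatives were a pseudocount of 10, no filter, a minimum mean of 50, quantile normalization, the same total, no trend, a block for the replicate number, a fit to the groups compared only, count tests on the recovered reads (edgeR 4.0.16, DESeq2 1.42.0), leaving out each library and, chosen after seeing the data, only the libraries at 4 h.

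The genes named were those of the pathway, the 15 largest rises and falls of protein coding genes called at 4 h whose mean reached 50 and whose groups did not overlap, at most 4 called members of each list (the largest difference where none was called), and the 3 largest rises and falls of non-coding RNAs under the same conditions as the coding genes. Any further gene in the text was picked with its values in view. The strains compared, the gene lists and the tests were chosen with earlier results of these data known. Some genes that the rule names are not reported here. Of the symbols in the lists 39 were not matched.

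Same-numbered libraries of the strains deviated together from their group means at 1 h (correlations of 0.40, 0.43 and 0.14) and in MM (0.12, 0.29 and 0.34), and less so at 4 h. The labels do not say what a number stands for. The 4 libraries of another experiment in the series were not used here. Python 3.11.15 with matplotlib 3.10.9 made the figures.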

Additional observations from a re-analysis of the deposited data

Results flagged for a closer look

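For 28 of the 92 named genes, the difference between igo1∆ and ppk18∆ cek1∆ cells at 4 h was another one than in MM, by the interaction of strain and time (limma, Benjamini-Hochberg adjusted p below 0.05 over all genes). Over all 6036 genes tested the interaction called 83 (1.38%). Many of the named genes were picked for a large difference at 4 h, which is part of the interaction, so that the 2 shares are not comparable. Values are the difference at 4 h minus that in MM, on the log2 scale. They were negative for the cell cycle genes cdt1 (-1.01), cdc18 (-0.77), tos4 (-0.77), dut1 (-0.73), cdc22 (-0.68), mik1 (-0.56) and ams2 (-0.29), and for eng1 (-0.93) and SPNCRNA.1278 (-0.97). They were positive for the biosynthesis genes hom2 (0.63), ser3 (0.61), lys4 (0.55), ade7 (0.49) and asn1 (0.40), and for gcn3 (0.77), aca1 (0.85), SPCC70.08c (0.87), vht1 (0.60), adh4 (0.31), mge1 (0.39), mcp60 (0.25), tgd1 (0.96), SPAC186.06 (2.50) and Tf2-10 (1.66). In the pathway itself they were -0.99 for igo1, 0.87 for ppk18 and 0.36 for ypa2. SPNCRNA.953, next to ppk18, had 0.64, since it was lower in igo1∆ cells at both times and less so at 4 h. ppk18 had 7161 ± 101 in igo1∆ and 162 ± 18.6 in ppk18∆ cek1∆ cells at 4 h, and 4765 ± 419 in igo1∆ and 198 ± 21.2 in ppk18∆ cek1∆ cells in MM (SD, n = 3). Apart from the remarks above on ppk18∆ cek1∆ replicate 3 and the fits that left out a library, no group of 3 libraries was examined for single deviating values.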

How the results depend on the processing

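The count of called genes at 4 h (362) was 77 with only the groups compared and 204 with only the libraries at 4 h, 2 settings with fewer samples. Leaving out 1 library gave 186 to 448. It was 430 with edgeR and 442 with DESeq2, and 353 and 346 of those were among the 362. Scaling to the same total gave 274 and quantile normalization 358. At 1 h (16) it was 28 with edgeR and 55 with DESeq2, and 11 to 18 when a library was left out. In MM (15) that range was 13 to 16. The interaction of 4 h against MM (83) gave 54 under quantile normalization, 15 with only the groups compared and 38 to 154 without a library. That of 4 h against 1 h (11) gave 41 with DESeq2, 18 with edgeR, 17 at a minimum mean of 50, 7 at the same total, 3 with only the groups compared and 4 to 39 without a library. For the counts against the wild type, leaving out a library gave 4319 to 4390 in igo1∆ (4536) and 4158 to 4234 in ppk18∆ cek1∆ cells (4374). The share of called genes nearer to the wild type in ppk18∆ cek1∆ cells (92.5%) was 87.5% to 93.6% without a library. The cause of these shifts was not tested.

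With the replicate number as a block 440 genes were called at 4 h, 344 of them among the 362. At 4 h the correlations of same-numbered libraries were -0.014, 0.29 and 0.12, so it is not known whether the number pairs the libraries there. The main tests used no block. At 1 h and in MM, where same-numbered libraries deviated together, the block gave 22 and 16. It moved no other count by over 1.5 times. At 1 h and in MM every igo1∆ library correlated best with the ppk18∆ cek1∆ library of its own number, and at 4 h replicate 1 did not. None of the 75 named genes called at 4 h changed sign in any setting, and 48 kept their call whichever library was left out. Fewest kept it with only the groups compared (32). With 3 libraries a group, many small differences lie near the limit of what these data resolve.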

Other observations

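The following genes are in no list above and were chosen after their values were seen. They do not stand for any class of genes. The kinase gene gcn2, whose product is activated by uncharged tRNA, had 12309, 14428 and 13673 in igo1∆ against 10277, 10656 and 9254 in ppk18∆ cek1∆ cells (log2 difference of 0.42, adjusted p = 2.21e-05), and 3929 on average in the wild type. The tRNA synthetase genes lrs1, vrs1 and irs1 were called with small steps, 0.24 for lrs1 (leucine), 0.19 for vrs1 (valine) and 0.18 for irs1 (isoleucine). The pyridoxine synthesis genes snz1 and sno1 differed by 0.33 and 0.50 (the call of snz1 was lost without ppk18∆ cek1∆ replicate 3, adjusted p = 0.0915), and the biotin synthase gene bio2 had 9753, 11110.0 and 10507 in igo1∆ against 8479, 8966 and 7183 in ppk18∆ cek1∆ cells (log2 difference of 0.35, adjusted p = 0.000698). At the mitochondrion the pyruvate carrier gene mpc1 had 4614, 5512 and 5407 in igo1∆ against 3795, 3835 and 3010.1 in ppk18∆ cek1∆ cells (log2 difference of 0.55, adjusted p = 7.79e-05), and the ABC transporter gene atm1 had 4879.9, 5853 and 5825 in igo1∆ against 4043, 4003 and 3285 in ppk18∆ cek1∆ cells (log2 difference of 0.55, adjusted p = 2.21e-05). The lifespan gene ecl1 had 25135, 25318 and 26546 in igo1∆ against 19483, 18033 and 17651 in ppk18∆ cek1∆ cells (log2 difference of 0.48, adjusted p = 0.000188), with 2050.4 in the wild type. None of these groups overlapped.

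On the lower side, pxl1, which encodes a paxillin-like protein of the division ring, had 293, 237 and 248 in igo1∆ against 355, 338 and 431 in ppk18∆ cek1∆ cells (log2 difference of -0.53, adjusted p = 0.000586), with 1528 in the wild type. The cell fusion gene prm1 had 421, 329 and 369 in igo1∆ against 473, 461 and 561 in ppk18∆ cek1∆ cells (log2 difference of -0.42, adjusted p = 0.00417), with 1169 in the wild type. Both deletions were below the wild type for these genes, and igo1∆ was the lower.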
